A study of Homo sapiens with 4 samples.

Results

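Tissue kallikreins and their Kazal-type (SPINK) inhibitors were followed in the MCF12A line, human breast epithelial cells that do not form tumours. The 9 listed genes were KLK5, KLK6, KLK7, KLK8, KLK10, KLK11, KLK13, SPINK5 and SPINK7, of 18417 genes that had a probe set of their own. They were chosen by their values on the same arrays described here, so those values are a description and carry no test. All 4 cultures were monolayers in the same kind of medium, which held horse serum, insulin, hydrocortisone, cholera toxin and EGF. Control 1 was the unexposed culture of the ethanol experiment, and the ethanol culture received 25 mM for 1 week. Control 2 was the unexposed culture of the acetaldehyde experiment, and the acetaldehyde culture received 2.5 mM for 1 week. Each culture gave 1 Affymetrix Human Gene 1.0 ST array, which reads transcripts with many short probes along a gene, so no value below has a replicate.

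Tissue kallikreins are secreted serine proteases encoded side by side in a single gene cluster. In stratified epithelia they are released by differentiating cells, activate one another, and cut the desmosomal proteins that hold the outermost cells together. Kazal-type inhibitors such as LEKTI, the product of SPINK5, block them. Several kallikreins are also made by breast epithelium, and KLK10 was first isolated as a transcript of normal mammary cells that breast tumour lines had lost.

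A probe set naming no other gene was found for 8 of the 9 members, 1 each, and no probe set in the platform annotation used here named SPINK5. Values are intensities on a linear scale, and a difference is the log2 of their ratio. Genes were kept where the brightest of the 4 arrays reached an intensity of 155, the median over the values of all single-gene probe sets, which left 10373 genes. Of the 8 measured members 7 passed and KLK13 did not. SPINK7 passed through control 1 alone, and KLK5, KLK6 and KLK11 through control 1 and ethanol. Array medians over all probe sets ran from 90.2 to 113.8 and lower quartiles from 29.7 to 42.3, the ethanol pair being the dimmer. The array medians and quartiles were closer within each experiment than between them, as separate normalization would give, so control 2 against control 1 also spans that gap: joint quantile normalization moved the all-gene median of this difference from 0.22 to -0.00290. For the 8 measured members it turned the direction of no difference. The central 95% of kept genes lay between -0.86 and 0.80 for ethanol, -0.43 and 0.41 for acetaldehyde, and -1.34 and 1.22 between the controls.

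The breast epithelial label was set against markers. All 6 measured basal markers, 6 of 8 luminal and all 4 general epithelial markers measured reached the brightness filter, with KRT5 between 9757 and 12169. Of the 14 measured markers of non-epithelial cells 4 reached it (CD14, CD68, COL1A1 and DCN), and the summed intensity of all 14 was 2590 in control 1 and 2709 with ethanol, against 3346 in control 2 and 3050 with acetaldehyde. PTPRC, the pan-leukocyte marker, stayed between 10.3 and 15.9 and PECAM1 of endothelium between 54.9 and 61.5, below the filter on every array. The stromal DCN, decorin, was not flat. It read 34.8 in control 1 and 34.6 with ethanol, against 177 in control 2 and 187 with acetaldehyde. Control 2 thus exceeded control 1 by 5.08-fold. DCN passed the filter in the acetaldehyde experiment alone and so had to be higher in control 2 than in control 1. Some epithelial markers were lower where the members were. Between the controls 3 of the 4 general epithelial markers, 2 of 6 luminal and 1 of 6 basal markers were at least 2-fold lower in control 2. Of all kept genes 4.85% were. At least 2-fold higher in control 2 were 0 markers of each list, beside 4.25% of kept genes. EPCAM is on both the general and the luminal list and counts in each. Of the general markers, GRHL2 passed the filter through control 1 alone and so had to be lower elsewhere. With ethanol 1 of 4 general, 1 of 6 luminal and 0 of 6 basal markers were at least 2-fold lower, beside 2.11% of kept genes. Their summed intensity in the order control 1, ethanol, control 2, acetaldehyde was 9742, 9567, 4607 and 4527 for the general list, 9214, 11999, 6123 and 6574 for the luminal and 28441, 29800, 30290.5 and 28841 for the basal list. Within the general list the ethanol differences were -2.41 for the transcription factor GRHL2, -0.32 for CDH1, 0.00295 for KRT7 and 0.70 for EPCAM, and the differences between the controls were -1.68, -1.33, -0.95 and -1.21. The part of these differences in the members' values was not tested. In these bulk samples, fewer cells of a type and less RNA per cell cannot be told apart.

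KLK5 starts the epidermal protease cascade, being a trypsin-like enzyme that activates itself and other kallikreins. Its intensity (probe set 8038670) was 3470 in control 1 and 789 with ethanol, against 117 in control 2 and 114 with acetaldehyde. Ethanol was thus 4.40-fold below its own control, yet 6.74-fold above control 2. Control 2 was 29.7-fold below control 1, a larger gap than that of ethanol. Acetaldehyde differed from control 2 by -0.03 on the log2 scale. In position among all genes of an array, which does not depend on scale, KLK5 stood at percentile 98.5 in control 1 and 86.0 with ethanol, against 38.9 in control 2 and 39.4 with acetaldehyde.

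KLK7 is the chymotrypsin-like kallikrein that cleaves corneodesmosin. It measured 2844 in control 1 (probe set 8038695) and 593 with ethanol, against 221 in control 2 and 173 with acetaldehyde. The order was the same as for KLK5, with control 1 highest and ethanol between the controls. Ethanol was 4.80-fold below control 1, control 2 was 12.9-fold below control 1, and acetaldehyde was 1.28-fold below control 2.

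KLK6, a trypsin-like member also abundant in brain, read 1379 in control 1 (probe set 8038683) and 256 with ethanol, against 94.0 in control 2 and 60.7 with acetaldehyde. Again ethanol lay between the controls, 5.38-fold below control 1 and 2.73-fold above control 2. Acetaldehyde was 1.55-fold below control 2. KLK6 and KLK7 were the most alike of all member pairs, 0.38 apart in Euclidean distance over the 3 log2 differences.

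KLK8, or neuropsin, had intensities of 1654 in control 1 (probe set 8038707) and 274 with ethanol, against 356 in control 2 and 249 with acetaldehyde. Unlike KLK5, KLK6 and KLK7, it was lower with ethanol than in either control, 6.03-fold against control 1 and 1.30-fold against control 2. Acetaldehyde was 1.43-fold below control 2. The annotation lists 1 transcript record for both KLK8 and its neighbour KLK9, so the signals of both genes are uncertain in how they were split.

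KLK10 has little known protease activity of its own. It was measured at 4864 in control 1 (probe set 8038725) and 1025 with ethanol, against 860 in control 2 and 419 with acetaldehyde. Ethanol was 4.74-fold below control 1 but 1.19-fold above control 2. With acetaldehyde KLK10 was 2.05-fold below its control, and with an offset of 32 added to every intensity this difference went from -1.04 to -0.98, inside the 2-fold threshold. KLK10 was the only measured member past 2-fold with acetaldehyde.

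KLK11, a trypsin-like member, gave 621 in control 1 (probe set 8038735) and 172 with ethanol, against 148 in control 2 and 115 with acetaldehyde. Ethanol was 3.61-fold below control 1 and within 1.16-fold of control 2. KLK13 was dim on every array, at 87.7 in control 1 (probe set 8038760) and 48.1 with ethanol, against 85.0 in control 2 and 82.4 with acetaldehyde. Here the controls were within 1.03-fold of each other and ethanol was the low array, 1.82-fold below control 1 and 1.77-fold below control 2. Between the controls its difference was -0.04, or -0.38 after joint quantile normalization, so the size of its gap between ethanol and control 2 depends on that step.

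SPINK7 encodes a short Kazal-type inhibitor of squamous epithelia such as the oesophagus. Its intensity (probe set 8109049) was 363 in control 1 and 9.28 with ethanol, against 20.2 in control 2 and 14.8 with acetaldehyde. Control 1 was the only array on which it exceeded the lower quartile of all probe sets. The ethanol value was 39.1-fold below control 1, and 1 kept gene had a lower difference. Because 3 of the 4 values were so dim, the size is uncertain: with each dim value raised to the lower quartile of its array, the difference went from -5.29 to -3.61 for ethanol and from -4.17 to -3.12 for control 2 against control 1. Acetaldehyde was 1.37-fold below control 2, both being under their quartiles, and with the same floor this difference turned from -0.45 to 0.01.

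**Figure D1:**
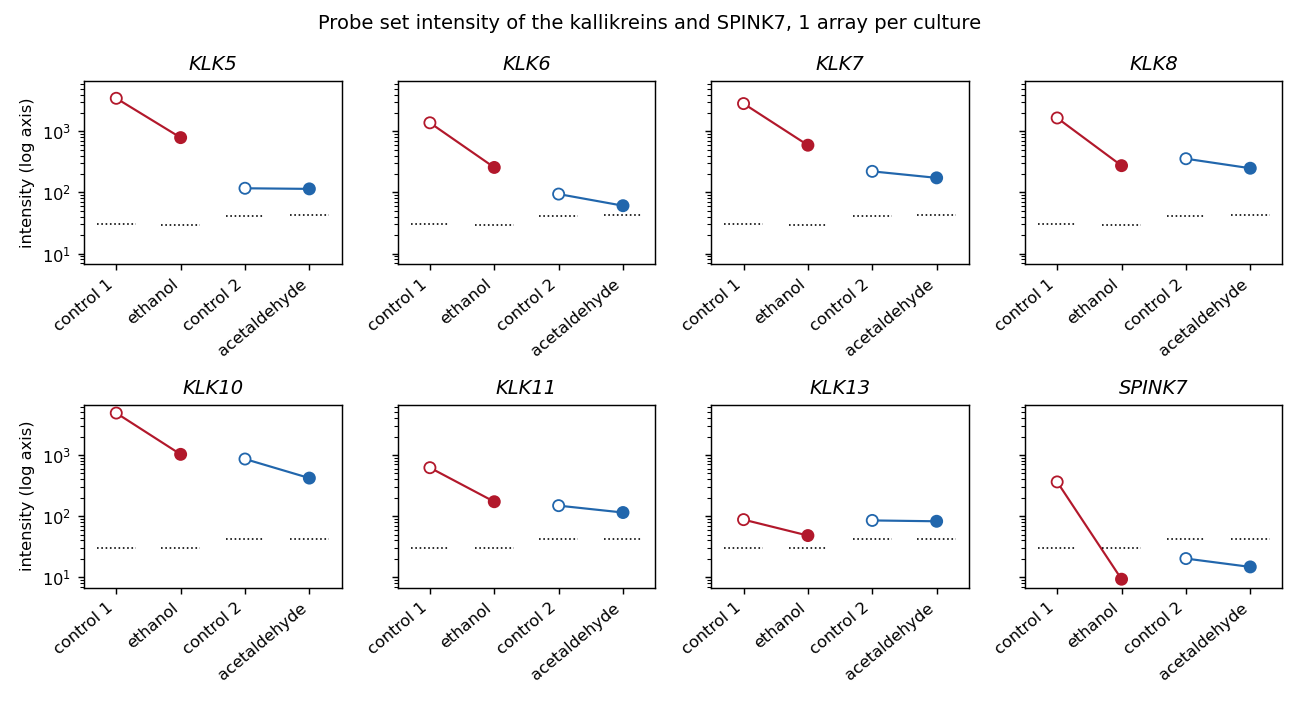
Intensity (log axis) of the 8 measured members on the 4 arrays, with open circles for controls, filled circles for exposed cultures, lines joining each exposure to its own control and dotted marks at each array's lower quartile over all probe sets. Control 1 is the highest array for every gene shown, and SPINK7 is above the dotted mark in control 1 only.

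Over the 8 measured members, 7 were at least 2-fold lower with ethanol than in control 1 (all but KLK13), where 2.11% of kept genes were. The same 7 genes were at least 2-fold lower in control 2 than in control 1, where 4.85% of kept genes were. These comparisons share control 1, and control 1 was the highest array for 8 of 8 members, against 19.8% of kept genes. Both at least 2-fold below control 1 and below control 2 with ethanol were 2 members, KLK8 and SPINK7, beside 1.41% of kept genes. For SPINK7 the order of ethanol and control 2 is between values that both lie under their arrays' lower quartiles, so it is uncertain. Since the members were chosen by these contrasts, nothing further is read from the counts.

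The median ethanol difference was -2.25 over the 8 members, where that of all kept genes was 0.05. Differences of the 7 kallikreins ran from -2.59 for KLK8 to -0.87 for KLK13. Against control 2 in place of control 1 the members' median turned to 0.23, with KLK5, KLK6, KLK7, KLK10 and KLK11 above that control and KLK8, KLK13 and, among dim values, SPINK7 below it. The direction for those 5 kallikreins thus depended on which unexposed culture was subtracted. Between the controls the members' median was -3.09 and that of kept genes 0.06.

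With acetaldehyde the members' differences were smaller. The median was -0.41, where that of kept genes was 0.00306, and the range ran from -1.04 for KLK10 to -0.03 for KLK5. All 8 members lay below both controls by some amount, as did 24.9% of kept genes. Control 1 was the highest array for every member, so for them this meant only a value below control 2. The share of kept genes is therefore not a like comparison. For KLK5 and KLK13 the differences from control 2 were as small as -0.03 and -0.05. For SPINK7 the order was lost with the floor. At least 2-fold lower was 1 member, KLK10, where 0.212% of kept genes were, and it was also below both controls, where 0.174% were. KLK6 (-0.63), KLK8 (-0.52), KLK10 and SPINK7 (-0.45) were below the central 95% of kept genes, and KLK5, KLK7, KLK11 and KLK13 were within it. For KLK6 and SPINK7 control 2 and acetaldehyde were both under the filter intensity, and with the floor SPINK7 turned to 0.01.

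**Figure D2:**
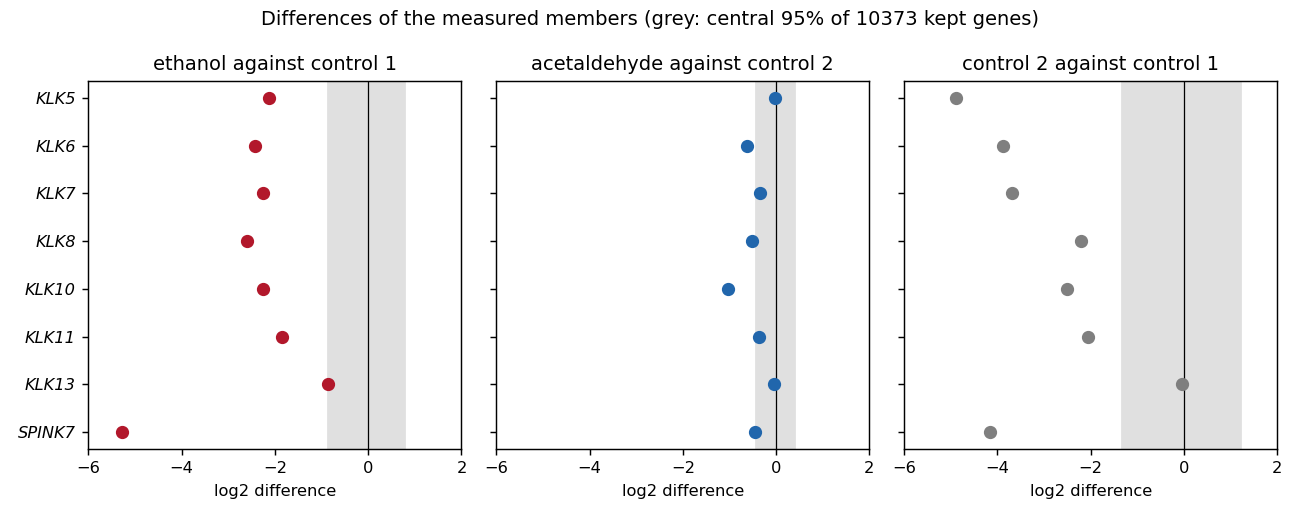
Log2 differences of the 8 measured members for ethanol against control 1, acetaldehyde against control 2 and control 2 against control 1, with the central 95% of 10373 kept genes in grey. For ethanol 7 points lie between -5.29 and -1.85, and for acetaldehyde all lie between -1.04 and -0.03.

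The kallikrein cluster lies on chromosome 19 and all 15 of its genes were measured. In the order of the RefSeq gene table (GRCh38.p14), KLK1, KLK15, KLK3, KLK2 and KLK4 come first and KLK5 to KLK14 follow. The 6 members KLK5, KLK6, KLK7, KLK8, KLK10 and KLK11 lie in a run interrupted by KLK9 alone, and these were the kallikrein members at least 2-fold lower with ethanol. KLK9 read 217 in control 1 and 123 with ethanol, against 125 in control 2 and 107 with acetaldehyde, differences of -0.82, -0.22 and -0.79 for ethanol, acetaldehyde and the controls. KLK14, at the far end of the cluster and not a member, read 303 in control 1 and 84.7 with ethanol, against 138 in control 2 and 134 with acetaldehyde, and was 3.57-fold lower with ethanol than in control 1. KLK9 and KLK14 passed the filter through control 1 alone. KLK14 is a potent trypsin-like activator of other kallikreins.

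KLK1, the classical kinin-releasing enzyme, was at 127 in control 1 and 106 with ethanol, against 205 in control 2 and 176 with acetaldehyde. It ran against the members between the controls, with a difference of 0.69, or 0.50 after joint quantile normalization. However, KLK1 passed the filter in the acetaldehyde experiment alone and so had to be higher in control 2 than in control 1. The 5 others, KLK2, KLK3, KLK4, KLK12 and KLK15, did not reach the filter. Their differences ran from -0.29 to 0.04 for ethanol, -0.13 to 0.22 for acetaldehyde and -0.03 to 0.44 between the controls, where KLK2, KLK3 and KLK12 turned sign under joint quantile normalization. KLK2 and KLK3 are the prostate kallikreins, KLK3 encoding prostate-specific antigen. Of the 10 nearest protein-coding genes, 5 on either side of the cluster, 8 were measured, with ethanol differences between -0.56 and 0.01, and the bright ones were the acid phosphatase gene ACP4 (-0.14) and the tRNA-modifying CTU1 (-0.23).

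**Figure D3:**
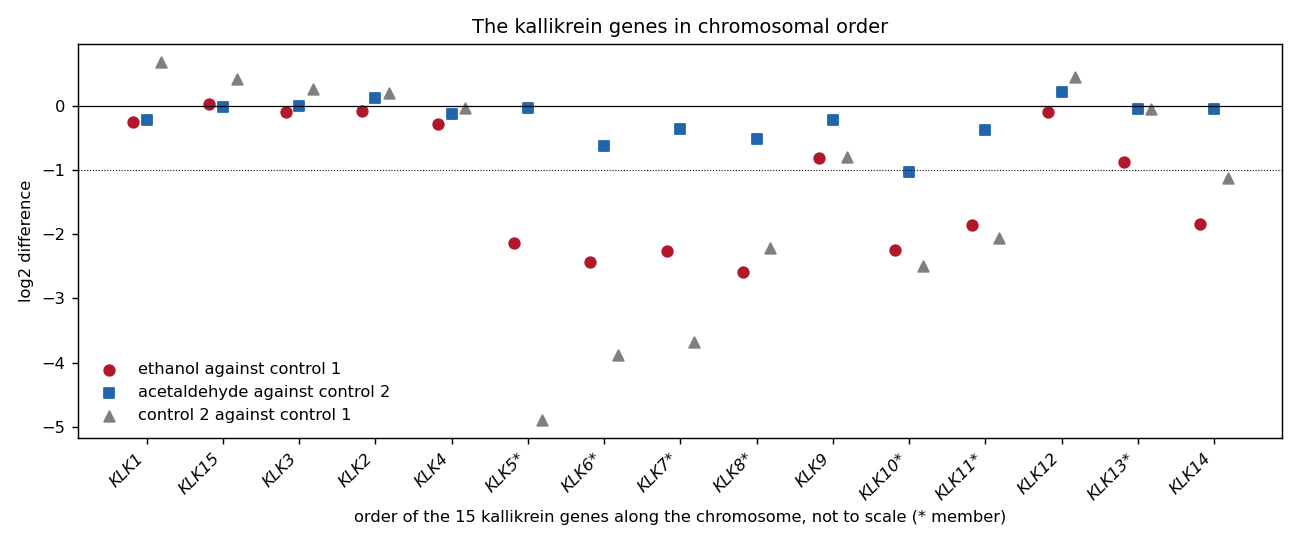
Log2 differences of the 15 kallikrein genes in chromosomal order (equally spaced, not to scale; asterisks mark members; dotted line at 2-fold lower). For ethanol the run from KLK5 to KLK8, with KLK10, KLK11 and KLK14, lies below -1, and the genes from KLK1 to KLK4 lie between -0.29 and 0.04.

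Among SPINK genes 7 of 10 were measured, and SPINK7 alone reached the filter. The other 6 ran from -1.34 to 0.06 for ethanol and -0.18 to 0.27 for acetaldehyde. The lowest was SPINK6, an inhibitor of KLK5 and KLK7 made by skin, named here after its values were seen. It read 76.8 in control 1 and 30.3 with ethanol, against 24.5 in control 2 and 23.7 with acetaldehyde, so that, as for SPINK7, control 1 was the highest array. SPINK5, SPINK6 and SPINK7 lie in a cluster on chromosome 5.

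Because most members had the same high array, their start sites were read from the RefSeq promoter table (GRCh38.p14), which matched 8 of the 9 members by symbol, without KLK8. The bases before each start site are shown for SPINK7 (chr5:148312173-148312422, plus strand), which had the largest ethanol difference and 4 motif matches, for KLK5 (chr19:50953039-50953288, minus strand), which had the largest gap between controls and no match, and for KLK10 (chr19:51019862-51020111, minus strand), the member furthest from its control with acetaldehyde. Each run is 250 bases, 5′ to 3′, ends at the base before the start site and has motif matches in capitals.
SPINK7: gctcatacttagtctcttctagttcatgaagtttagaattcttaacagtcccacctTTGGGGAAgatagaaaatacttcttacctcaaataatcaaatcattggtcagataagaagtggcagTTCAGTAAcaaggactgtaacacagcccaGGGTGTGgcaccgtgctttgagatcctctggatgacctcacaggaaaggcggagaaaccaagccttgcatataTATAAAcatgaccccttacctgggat
KLK5: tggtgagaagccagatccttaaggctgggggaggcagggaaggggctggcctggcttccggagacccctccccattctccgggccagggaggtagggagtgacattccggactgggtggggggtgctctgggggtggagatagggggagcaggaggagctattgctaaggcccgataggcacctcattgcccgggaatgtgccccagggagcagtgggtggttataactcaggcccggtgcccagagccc
KLK10: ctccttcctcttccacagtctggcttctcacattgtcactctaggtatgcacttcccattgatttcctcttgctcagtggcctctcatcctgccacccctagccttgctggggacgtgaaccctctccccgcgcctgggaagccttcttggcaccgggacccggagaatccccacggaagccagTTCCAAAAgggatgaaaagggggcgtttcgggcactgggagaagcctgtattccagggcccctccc

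In the SPINK7 run the capitals are, from left to right, the C/EBP letters TTNCNNAA on the opposite strand at -194 to -187 and at -128 to -121, the Kruppel-like letters GGGTGTG at -99 to -93, and the TATA box letters TATAAA at -26 to -21, counted from -1 just before the start site. These matches do not overlap. In KLK10 the capitals are TTNCNNAA at -66 to -59. All motifs were searched on both strands, and a gene was counted if any of its windows held the letters. TTNCNNAA was found for 3 of 8 members (KLK10, SPINK5 and SPINK7), beside 38.1% of 27305 genes. GGGTGTG was found for KLK11 and SPINK7, beside 8.01%, and TATAAA for SPINK5 and SPINK7, beside 13.0%. The glucocorticoid receptor letters AGAACA were found for SPINK5, beside 14.8%. The AP-1 letters TGANTCA (8.06% of genes) and the grainyhead-like letters AACCGGTT (0.143%) were found for 0 of 8 members in these windows. A match is a description of letters and not of a bound site.

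Proteases that activate kallikreins and the other inhibitors around them formed a list of 26 genes, of which 23 were measured and 15 kept. With ethanol 6 of the 15 were at least 2-fold lower and 1 higher (median -0.50), where 2.11% of kept genes were lower and 1.17% higher. With acetaldehyde 1 was lower and 0 higher (median -0.30), where 0.212% and 0.0289% of kept genes were. Between the controls 6 were lower and 1 higher (median -0.73), where 4.85% and 4.25% of kept genes were. TMPRSS11E and WFDC12 passed the filter through control 1 alone and so had to be lower elsewhere. The largest differences were those of the broad protease inhibitor A2ML1 (-3.12 with ethanol, -0.17 with acetaldehyde, -3.76 between controls), elafin, PI3 (-3.27, -1.11 and -0.39), the serpin SERPINA3 (0.40, -0.79 and 3.14) and the membrane protease TMPRSS11E (-2.06, -0.11 and -2.67). A2ML1 and TMPRSS11E followed the kallikreins in being low on the 3 arrays other than control 1. PI3 did not: it read 5416 in control 1 and 563 with ethanol, against 4120 in control 2 and 1911 with acetaldehyde, so that each exposed array was below both controls. The membrane proteases ST14 (matriptase) and PRSS8 (prostasin), named after their values were seen, were at -0.94 and -1.35 with ethanol, -0.58 and -0.39 with acetaldehyde, and -1.89 and -1.26 between the controls. For ST14 ethanol (511) lay between control 1 (981) and control 2 (265). Not all of the list went the way of ST14 and PRSS8. With ethanol 10 of the 15 kept genes were below control 1, and the highest difference was 2.20.

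Substrates and protease-activated receptors formed another list of 26 genes, of which 22 were measured and 14 kept. With ethanol 7 were at least 2-fold lower and 1 higher (median -0.88), beside the same 2.11% and 1.17% of kept genes. With acetaldehyde 0 were lower and 0 higher (median -0.19), beside 0.212% and 0.0289%. Between the controls 8 were lower and 1 higher (median -1.28), beside 4.85% and 4.25%. DSG1 and FLG passed the filter through control 1 alone. CDSN, corneodesmosin, a target of KLK5 and KLK7, read 1470 in control 1 and 170 with ethanol, against 235 in control 2 and 190 with acetaldehyde. Its 3 probe sets gave ethanol differences from -3.12 to -3.10. CASP14, a caspase of cornifying cells, differed by -2.30 with ethanol, -0.76 with acetaldehyde and -5.43 between controls, and the filaggrin gene FLG by -2.85, 0.04 and -2.34. Fibronectin, FN1, ran the other way at 1.33, 0.47 and 3.58. DSG1, the desmosomal cadherin of upper cell layers, named after its values were seen, read 168 in control 1 and 26.7 with ethanol. It read 41.1 in control 2 and 41.3 with acetaldehyde. Apart from control 1, these values lay under the lower quartiles of their arrays, so the size of its differences is uncertain. With ethanol 11 of the 14 kept genes were below control 1. DSG2, another desmosomal cadherin named after its values were seen, was not among them, at 0.80.

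**Figure D4:**
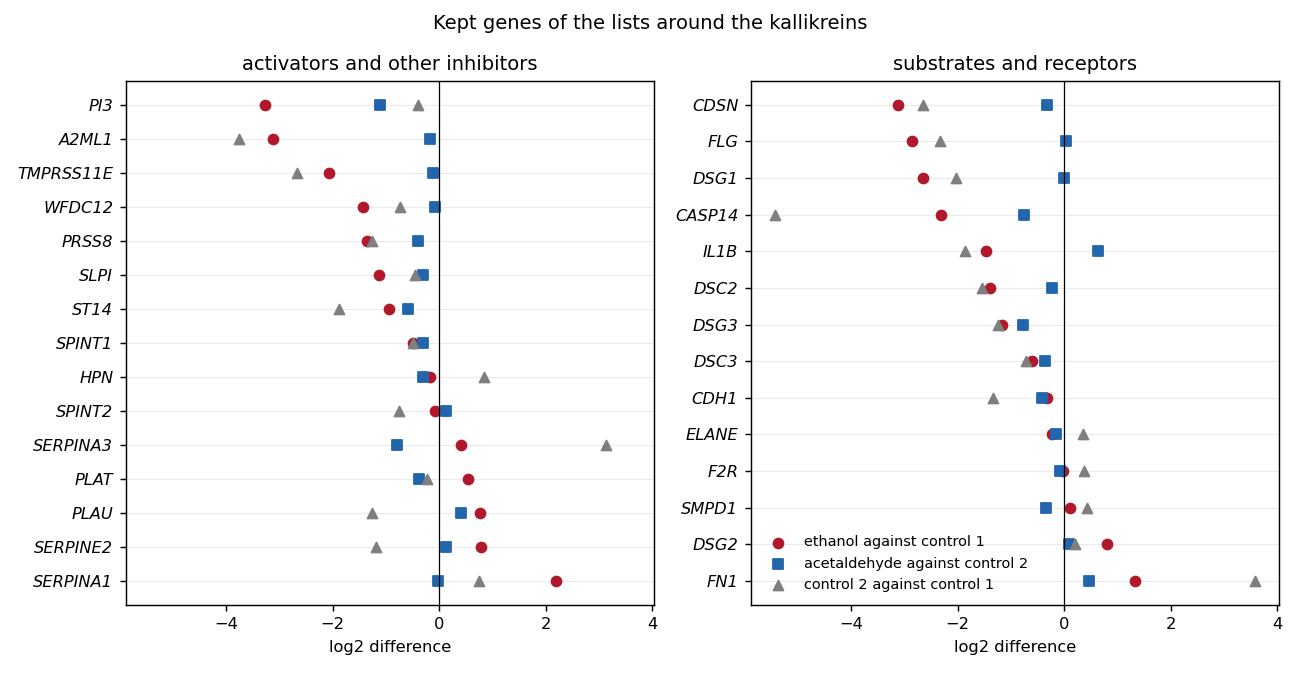
Log2 differences of the 15 kept activators and other inhibitors and the 14 kept substrates and receptors, ordered by the ethanol difference, for the 3 comparisons. PI3 and CDSN are the lowest with ethanol in their lists, at -3.27 and -3.12, and CASP14 is the lowest between the controls, at -5.43.

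The 8 kept genes nearest to the members' median over the 3 differences, other than members, were DSG4 (distance 0.24), ADGRF1 (0.25), PNLIPRP3 (0.29), LIPH (0.46), KRT80 (0.48), CEACAM5 (0.49), TMPRSS11E (0.55) and CEACAM6 (0.56). Likeness here is the Euclidean distance of log2 differences over 4 arrays, which share control 1 in 2 of the 3 differences. DSG4, a desmosomal cadherin, read 421 in control 1 and 89.9 with ethanol, against 43.9 in control 2 and 36.9 with acetaldehyde. By member, the nearest kept gene was CPA4 for KLK5 (0.69), ANKRD22 for KLK6 (0.22), IGFL1 for KLK7 (0.30), TMEM40 for KLK8 (0.22), ATP8B1 for KLK10 (0.40), SCNN1B for KLK11 (0.30), SNORA60 for KLK13 (0.13) and SLC6A14 for SPINK7 (1.03). SPINK7 had the most distant neighbour of the 8 members. Of these neighbours, DSG4, ADGRF1, KRT80, CEACAM5, TMPRSS11E, ATP8B1 and SLC6A14 passed the filter through control 1 alone and so had to be lower elsewhere.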

How the data were processed

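Each deposited value is a linear intensity of 1 probe set on 1 array, made by RMA per the submitters' processing notes; the software is not given in the sources used here. Of 33297 probe sets, 19460 named 1 gene in the platform annotation, 1754 several and 12083 none, and only the first were used. Where a gene had several, that with the highest mean was taken. Differences are of log2 values with no offset. Genes whose brightest value reached log2 7.28 were kept. With 1 array per group and members and lists chosen with earlier results of these data known, no test was run. Named were the members, the family genes past the filter and at most 4 genes per other list with the largest difference in any comparison. So were the 8 nearest genes, each member's nearest gene, some cell type markers, the dim kallikreins and the bright genes beside both clusters. SPINK6, ST14, PRSS8, DSG1 and DSG2 are marked as named after their values were seen. Alternatives were joint quantile normalization, the mean of probe sets, an offset of 32, a floor at the lower quartile, other thresholds, other controls and no filter. The choice of probe set, the differences, the fold counts and the nearest-gene search were tested on simulated data. Quantile normalization was tested on a small made-up example, and the other steps were not tested in this way. Python 3.11.15, pandas 2.3.3 and matplotlib 3.10.9 were used. Array number limits precision.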

Additional observations from a re-analysis of the deposited data

Results flagged for a closer look

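Of the kept genes given above with array values or differences, 4 lay on opposite sides of their own controls in the 2 exposures. Genes named only by a distance or a range were not counted. The differences between the exposures were not tested, and the share of all kept genes with opposite signs was not computed. SERPINA3 was at 0.40 with ethanol and -0.79 with acetaldehyde. FLG was at -2.85 and 0.0353, DSG1 at -2.66 and 0.00714, and DCN at -0.0113 and 0.0765. With joint quantile normalization DSG1 had the same sign in both, its acetaldehyde difference turning to -0.00652. FLG and DSG1 passed the filter through control 1 alone, so their ethanol differences had to be negative. The acetaldehyde differences of FLG and DSG1 and both differences of DCN were close to no change, so their signs are uncertain. For DSG1 the control 2 and acetaldehyde values also lay under the lower quartiles of their arrays.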

How the results depend on the processing

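Against the other experiment's control, the members' median ethanol difference turned to 0.23 with 1 member at least 2-fold lower, and KLK5 (2.75), KLK6 (1.45), KLK7 (1.42), KLK10 (0.25) and KLK11 (0.21) turned positive. The acetaldehyde median became -3.79, with 7 members lower. Against the mean of both controls the medians were -0.83 for ethanol, with 2 members lower and KLK5 turned to 0.31, and -2.24 for acetaldehyde, with 7 lower. For acetaldehyde the count of 1 became 0 with an offset of 32, 2 at 1.5-fold and 0 at 3-fold. Joint quantile normalization and the floor left these counts at 7, 1 and 7 for ethanol, acetaldehyde and the controls, and each median within 1.5-fold. Without the filter the share of genes at least 2-fold lower between the controls went from 4.85% to 2.98%. Each member has 1 probe set, so the mean of probe sets gives the same values by construction. With 1 array per group no array could be left out. Arrays have no read depth, and values below the lower quartile, as for SPINK7, have uncertain size: with the floor its acetaldehyde difference turned to 0.01.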

Other observations

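Around the SPINK cluster on chromosome 5, 9 of the 10 nearest protein-coding genes, 5 on either side, were measured, with ethanol differences between -0.39 and 0.53. The bright ones were FBXO38, an F-box protein gene (0.19 with ethanol, 0.28 with acetaldehyde), SH3TC2 (0.53 and 0.26) and the actin-binding ABLIM3 (0.09 and 0.39).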
